A study of Rattus norvegicus with 30 samples.

Results

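The aryl hydrocarbon receptor (AhR) axis comprised 7 genes in these rat hepatocyte arrays: the xenobiotic-metabolising enzymes Cyp1a1, Cyp1a2 and Cyp1b1, the receptor target Tiparp, the receptor Ahr, its repressor Ahrr and its partner Arnt. The genes were chosen with earlier results of these data known. Their probe sets were then taken as every one that the array annotation assigned to one of these symbols. This gave 9 probe sets of 31042 and 7 genes of 14217 with a single symbol; Tiparp and Ahr had 2 probe sets each and the others had 1. Cyp1a1 and Cyp1a2 rose at both doses of chlorpromazine and at both times, the call of Cyp1a2 at 0.8 µM for 24 h not holding under all settings and arrays. Tiparp rose at 20 µM at both times, and Cyp1b1 rose at 20 µM at 24 h in a call that rested on 1 vehicle array. Neither Ahr probe set was called against vehicle, and Ahrr and Arnt were too dim to pass the filter for the test across all probe sets.

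AhR is a ligand-activated transcription factor of the bHLH-PAS family that rests in the cytosol in a complex with HSP90 and its co-chaperones. After binding a planar aromatic ligand it enters the nucleus, pairs with ARNT and binds dioxin response elements near its target genes. In liver its best known targets are the CYP1 monooxygenases, which oxidise aromatic compounds and drugs, and it also switches on its own brakes, TIPARP and AHRR.

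Expression was measured in primary hepatocytes of male Sprague Dawley rats, bought frozen, plated on collagen and overlaid with Matrigel. On day 3 of culture the wells received vehicle (1% DMSO), 0.8 µM or 20 µM chlorpromazine HCl, a phenothiazine antipsychotic, and RNA was taken after 24 or 48 h, so that all groups shared the same cell source, medium and matrix. Each of the 6 combinations had 5 wells and each well its own array, which gave 30 arrays, and the study asked how transcripts respond to dose and time. The wells are described as separate cultures with no mention of different animals, so each p-value reflects variation among wells. The protocol states that dosing solutions for all doses were prepared in 1% DMSO, while the labels give a DMSO content for the vehicle wells alone. These are thawed cells kept on a dish, and RNA was read from whole wells.

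The 31099 probe sets, 57 of them controls, carried MAS5 signals, and the arrays had median signals of 379.79 to 448.76. Correlations of log2 signals within a group averaged 0.940 to 0.952 per array. One vehicle array at 24 h (replicate 2) is titled 2 h and has a time entry of 24 h; it was kept with the 24 h group, where its mean correlation was 0.946. The hepatocyte markers Alb, Apoa1, Ttr, Tat and Cps1 were bright, with Alb reaching 135209, and limma called 1 of the 5 at 20 µM: Tat, a glucocorticoid-responsive aminotransferase, fell at 48 h (-0.43 ± 0.07 SE, adjusted p = 2.5e-05). Of the other cell types, Cd68 of 4 measured Kupffer cell markers rose at 20 µM at 48 h (log2 change 1.44 ± 0.13 SE, adjusted p = 8.2e-11), and summed Kupffer signals were 2878.2 to 3853 there against 1866.6 to 2617.5 in vehicle. The other 3 Kupffer markers had the opposite sign and did not pass the test (Cd163 -0.21, Clec4f -0.22 and Csf1r -0.35), which left a list median of -0.22, Marco is not listed, and the part of these cells in the results at 48 h was not tested. At 24 h the dim bile duct marker Krt19 fell at 20 µM (-1.28 ± 0.35 SE, adjusted p = 0.00889). Epcam, the other tested bile duct marker, was not called, and the list median was -0.60. Summed signals of the 3 measured bile duct genes overlapped, with 9307 to 10976 at 20 µM and 8835.2 to 10154 in vehicle. At 0.8 µM limma called 0 marker genes at either time. There 1 endothelial marker at 24 h and 1 Kupffer marker at 48 h were lower at an unadjusted p under 0.05. Of all tested probe sets 17.4% were called at 20 µM at 24 h and 26.9% at 48 h. At 0.8 µM the shares were 0.283% and 1.81%, so few marker calls could arise at that dose.

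Signals were floored at 16 and put on a log2 scale, and a probe set was tested only if it exceeded the 40th percentile of its own array on at least 5 arrays. Of the 9 probe sets of the axis 7 passed, as did 21226 in the whole table; those of Ahrr and Arnt exceeded that percentile on 0 arrays. Values below are log2 changes ± SE from limma with 5 arrays per group, adjusted by Benjamini-Hochberg over all 21226 probe sets, and a change is called at an adjusted p under 0.05. Both doses were compared with the same vehicle arrays, so those comparisons are not independent of each other.

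At 20 µM for 24 h, 5 of the 7 tested probe sets were called higher and 0 lower, with a median log2 change of 0.54 beside -0.01 over all tested probe sets. Of all tested probe sets 17.4% were called there and 9.12% were called higher. After 48 h, 4 of 7 were higher and 0 lower, with a median of 0.61 beside 0.01, where 26.9% of all probe sets were called and 14.4% called higher. At 0.8 µM only Cyp1a1 and Cyp1a2 were called, 2 of 7 higher and 0 lower at each time, with median changes of 0.11 at 24 h and 0.20 at 48 h beside 0.01 and 0.01 over all probe sets. That dose called far fewer probe sets: 0.283% at 24 h (0.127% higher) and 1.81% at 48 h (0.815% higher). The number behind the first share, 60 probe sets, moved between 4 and 124 with the settings and arrays used.

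**Figure D1:**
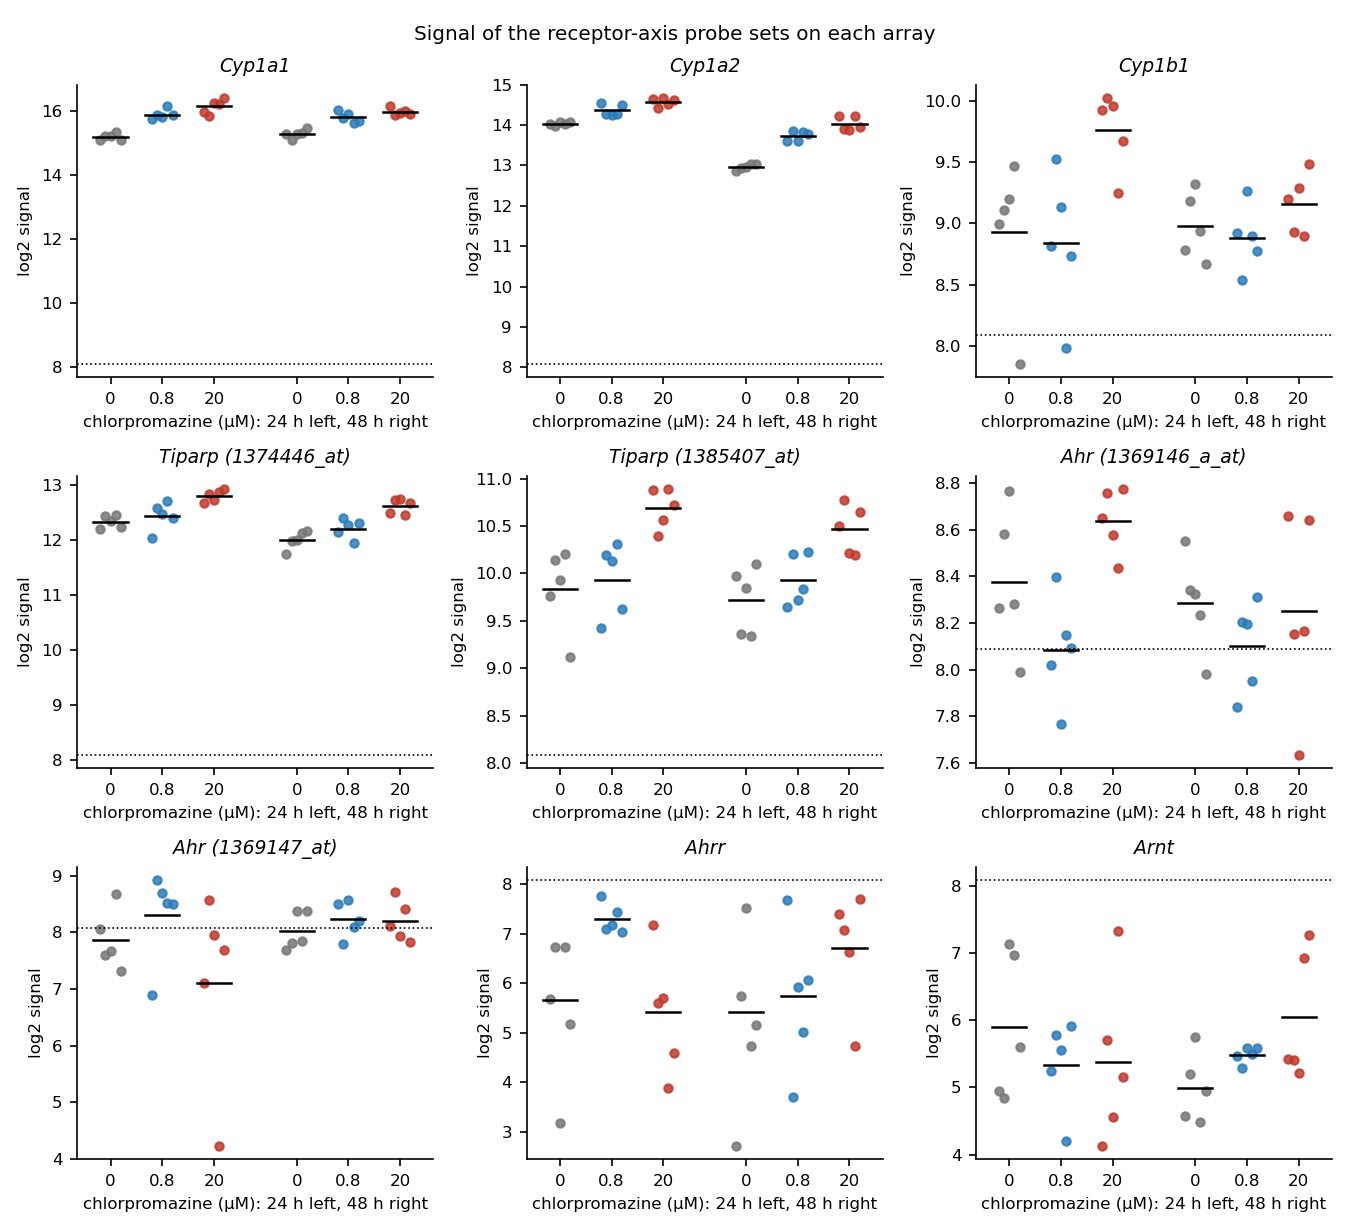
Log2 signal of each of the 9 probe sets on each of the 30 arrays (points) with the group mean (bar), by chlorpromazine dose, 24 h on the left and 48 h on the right of each panel; the vertical scales differ between panels and the dotted line is the mean 40th percentile of the arrays (log2 8.087). All treated points of Cyp1a1 and Cyp1a2 lie above the vehicle points of the same time, while all points of Ahrr and Arnt lie below the dotted line.

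Cyp1a1 encodes the most inducible monooxygenase of the battery and is the classical readout of AhR activity. Its signals at 24 h were 34891, 37874, 38346, 41229 and 34554 in vehicle wells, 55104, 59592, 57572, 72763 and 59880.2 at 0.8 µM, and 64610.3, 59128, 78495, 76818 and 87265 at 20 µM. Every treated well lay above every vehicle well, and the ranges of the 2 doses overlapped. At 20 µM it rose by 0.96 ± 0.09 (1.95-fold, adjusted p = 1.76e-09). After 48 h its signals were 39558, 34615, 39486, 41076 and 44973 in vehicle wells, 66797, 55921, 61443, 50873 and 52218 at 0.8 µM, and 73672, 60569, 62540.3, 65560.1 and 61296 at 20 µM. Again no treated well reached down into the vehicle range, and the rise at 20 µM was 0.70 ± 0.09 (1.62-fold, adjusted p = 2.52e-07). As RNA was read from whole wells, more responding cells and more RNA per cell cannot be told apart in this or any later result.

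Cyp1a2 encodes the constitutive hepatic CYP1 enzyme, known for oxidising caffeine and aromatic amines. Its signals at 24 h were 16721, 16212, 17184, 16751 and 17235 in vehicle wells, 23933, 19843, 19593, 19866 and 23133 at 0.8 µM, and 25582, 21935, 26190.3, 23360.5 and 25228 at 20 µM. The vehicle wells were tightly grouped, and all treated wells lay above them. At 48 h its signals were 7442, 7794, 7985, 8398 and 8394 in vehicle wells, 12444.5, 14695, 12549.8, 14612 and 14116 at 0.8 µM, and 19145.5, 15210.2, 15093, 19278 and 15884 at 20 µM. At this time the 3 dose groups did not overlap at all and followed the order of dose. The rise at 20 µM was 0.54 ± 0.07 at 24 h (1.45-fold, adjusted p = 9.01e-07) and 1.07 ± 0.07 at 48 h (2.10-fold, adjusted p = 1.46e-13).

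At the low dose both CYP1A genes ranked high by p and lower by size of change. At 0.8 µM for 24 h Cyp1a1 rose by 0.70 ± 0.09 (1.63-fold, adjusted p = 0.000102) and ranked 2 of 21226 probe sets by p and 329 by size of rise. Cyp1a2 rose by 0.33 ± 0.07 at that time (1.26-fold, adjusted p = 0.0354, rank 29 by p and 1567 by rise). That Cyp1a2 call was not firm: it was lost under 6 of 13 other settings, where adjusted p ranged from 0.0116 to 0.191, and without any one of 7 of the 10 arrays, among them vehicle replicate 4 (adjusted p = 0.0818) and 0.8 µM replicate 5 (adjusted p = 0.0934). Its direction did not change in any of these fits. The exact two-sided permutation p was 0.00794, the smallest that 5 against 5 can give, as it is for any 2 groups that separate fully. It comes from the same 10 arrays and was not adjusted over all probe sets, so it does not make the call firmer. At 48 h Cyp1a2 rose by 0.77 ± 0.07 (1.71-fold, adjusted p = 4.52e-08) and ranked 2 by p and 295 by rise, and Cyp1a1 rose by 0.52 ± 0.09 (1.44-fold, adjusted p = 0.000966, rank 53 by p and 709 by rise).

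**Figure D2:**
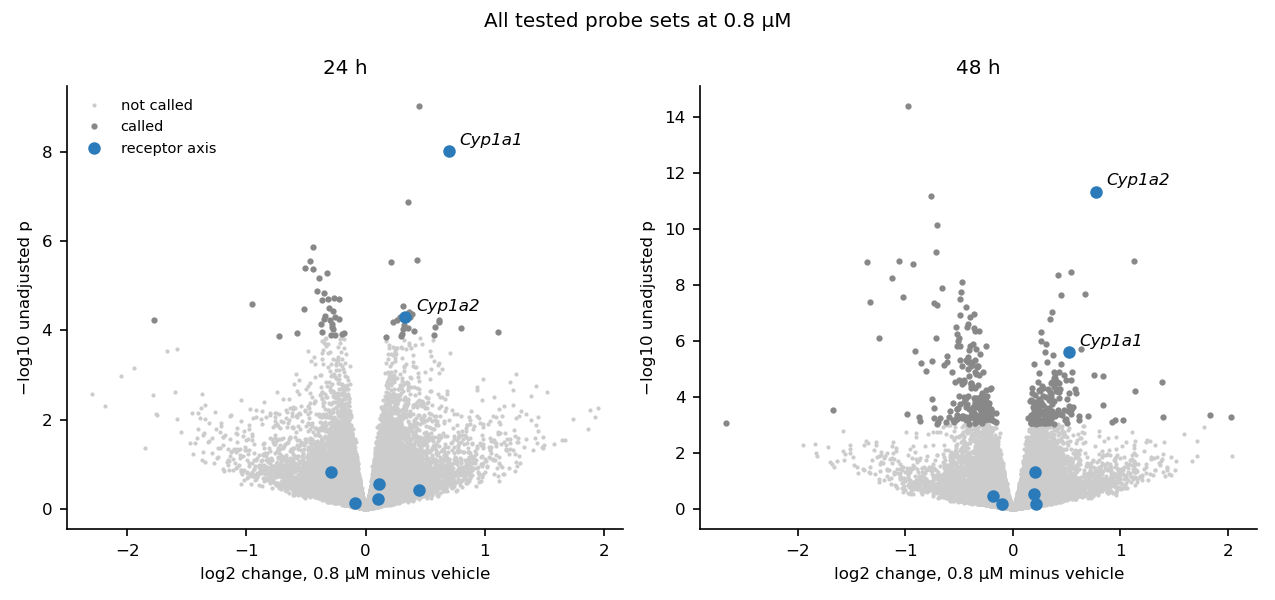
Log2 change at 0.8 µM minus vehicle (horizontal) against minus log10 of the unadjusted limma p (vertical) for all 21226 tested probe sets at 24 h (left) and 48 h (right), with called probe sets in dark grey and the 7 probe sets of the receptor axis in blue. Cyp1a1 and Cyp1a2 are the named blue points, and the other 5 lie among the uncalled probe sets.

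The step between the doses was small for Cyp1a1. Between 20 and 0.8 µM it differed by 0.26 ± 0.09 at 24 h (adjusted p = 0.0638, 95% interval 0.07 to 0.44) and by 0.18 ± 0.09 at 48 h (adjusted p = 0.195, interval -0.01 to 0.36), neither past the threshold. The 24 h difference was called under 3 of 13 other settings, quantile normalization giving the lowest adjusted p (0.00726), and without 0.8 µM replicate 4 (0.0178), 20 µM replicate 1 (0.0414) or 20 µM replicate 2 (0.0118). Cyp1a2 was higher at 20 than at 0.8 µM at 48 h, by 0.30 ± 0.07 (adjusted p = 0.00189). At 24 h its difference was 0.20 ± 0.07 (adjusted p = 0.0614), which passed under 4 of 13 settings, array weights giving 0.024, and without 0.8 µM replicate 1 (0.025), 0.8 µM replicate 5 (0.0415) or 20 µM replicate 2 (0.0286). Over the axis 3 of 7 probe sets were higher and 0 lower at 20 than at 0.8 µM at each time. Among all tested probe sets, 5.59% were higher at 24 h and 9.91% at 48 h in that comparison.

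Cyp1a2 also differed between the times in vehicle wells. Its signals given above reached at most 8398 in vehicle wells at 48 h and at least 16212 in vehicle wells at 24 h, a change of -1.07 ± 0.07 (0.475-fold, adjusted p = 1.81e-11) that ranked 1 of all probe sets by p. Cyp1a1 did not pass the test between those vehicle groups (0.09 ± 0.09, adjusted p = 0.63). Tiparp probe set 1374446_at was also called lower at 48 h, by -0.33 ± 0.10 (adjusted p = 0.0318), a call lost under 3 of 13 other settings and without any one of 6 arrays (vehicle replicates 2, 3 and 4 at 24 h and 1, 2 and 3 at 48 h, adjusted p 0.0572 to 0.112). The other Tiparp probe set (1385407_at) was not called there (-0.11 ± 0.19, adjusted p = 0.824). With Cyp1a2 and Tiparp 1374446_at, 2 of 7 probe sets of the axis were called lower with time, where 4.28% of the whole table was. Markers of other cell types differed in the same comparison. Cd68 (-0.84) and Clec4f (-1.26) of 4 measured Kupffer markers and Lyve1 (-0.67) of 4 endothelial markers were called lower at 48 h. Epcam (0.28) of 2 tested bile duct markers was called higher. Krt19, the other tested bile duct marker, had the opposite sign and was not called (-0.10, adjusted p = 0.922). The bile duct list median was 0.09. Of all 21226 tested probe sets, 987 were called higher between those vehicle groups. Summed Kupffer signals were 1866.6 to 2617.5 at 48 h and 3083 to 4112.1 at 24 h in vehicle wells, and summed endothelial signals 959.61 to 1826.2 and 1743 to 2257.2 in the same order. Of the 5 hepatocyte markers limma called 0, also with 0 at an unadjusted p under 0.05, and the part of the other cells in the changes with time was not tested. Because vehicle Cyp1a2 was lower at 48 h, the mean log2 level of 14.04 ± 0.18 (SD) at 20 µM and 48 h matched that of vehicle wells at 24 h, 14.04 ± 0.04.

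The rise of Cyp1a2 at 20 µM was larger at 48 h than at 24 h, by 0.54 ± 0.10 (adjusted p = 0.00156), the 1 of 7 probe sets called higher in that comparison of effects, where 1.09% of the table was. Cyp1a1 went the other way without passing the test (-0.26 ± 0.13, adjusted p = 0.365), although quantile normalization called it (-0.29, adjusted p = 0.0106). For 0.8 µM, a comparison added after seeing the data, the effect of Cyp1a2 at 48 minus 24 h was 0.44 ± 0.10 and missed the threshold (adjusted p = 0.132).

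The measured signals of these neighbouring genes therefore changed by unequal amounts, in opposite order at the 2 times. The signals come from different probe sets of unlike brightness, and whether these respond alike to RNA was not tested. Cyp1a1 and Cyp1a2 lie next to each other on rat chromosome 8 with 0 annotated genes between them. The within-array difference of their log2 signals averaged 1.57 ± 0.19 at 20 µM and 1.15 ± 0.12 in vehicle at 24 h (SD, n = 5 each, exact two-sided permutation p = 0.00794), so Cyp1a1 rose by 0.42 more. At 48 h it averaged 1.94 ± 0.11 at 20 µM and 2.32 ± 0.11 in vehicle (SD, n = 5 each, exact two-sided permutation p = 0.00794), so Cyp1a1 rose by less, the change minus that of Cyp1a2 being -0.38. The arrays of the groups did not overlap at either time, and the adjusted p over both times was also 0.00794, the smallest possible.

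**Figure D3:**
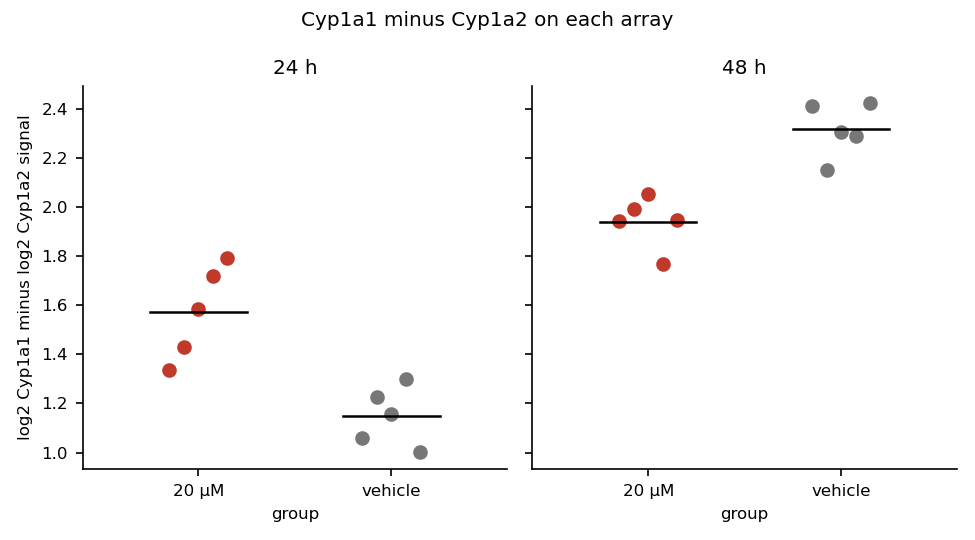
Within-array difference of log2 Cyp1a1 and log2 Cyp1a2 signal (vertical) at 20 µM and in vehicle at 24 h (left) and 48 h (right), with 1 point per array and the mean as a bar. The 20 µM arrays lie at 1.34 to 1.79 above vehicle at 1.00 to 1.299 at 24 h, and at 1.77 to 2.05 below vehicle at 2.15 to 2.42 at 48 h.

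Ordered by mean log2 level over the 6 groups, Cyp1a1 stood at 16.15 (20 µM, 24 h), 15.98 (20 µM, 48 h), 15.89 (0.8 µM, 24 h), 15.80 (0.8 µM, 48 h), 15.28 (vehicle, 48 h) and 15.19 (vehicle, 24 h). The ranges of neighbours in that order overlapped everywhere except at the step between 0.8 µM and vehicle. For Cyp1a2 the order was 14.58 (20 µM, 24 h), 14.37 (0.8 µM, 24 h), 14.04 (20 µM, 48 h), 14.04 (vehicle, 24 h), 13.74 (0.8 µM, 48 h) and 12.96 (vehicle, 48 h), and overlap was limited to the first pair and to the groups at 14.04. Tiparp, by probe set 1374446_at, ran from 12.81 (20 µM, 24 h) over 12.62 (20 µM, 48 h), 12.44 (0.8 µM, 24 h), 12.33 (vehicle, 24 h) and 12.21 (0.8 µM, 48 h) to 12.004 (vehicle, 48 h), with every pair of neighbours overlapping.

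Cyp1b1 encodes the CYP1 enzyme known mainly from tissues outside the liver, and its probe set was dim, above the 40th percentile on 28 of 30 arrays. Its signals at 24 h were 510.4, 553, 588, 709 and 231 in vehicle wells, 451, 737, 562, 253 and 425 at 0.8 µM, and 973, 1042, 996, 607 and 816 at 20 µM. Of the 20 µM wells 4 of 5 lay above all vehicle wells, and vehicle replicate 5 was the lowest array of all. The change at 20 µM was 0.84 ± 0.25 (1.79-fold, adjusted p = 0.0144). Without vehicle replicate 5 it was 0.57 and the call was lost (adjusted p = 0.0766).

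Against 0.8 µM at 24 h Cyp1b1 was higher by 0.93 ± 0.25 at 20 µM (adjusted p = 0.0105), and without 0.8 µM replicate 4 this was 0.71 (adjusted p = 0.0502). At 48 h no change was called: the differences from vehicle were 0.18 ± 0.25 at 20 µM (adjusted p = 0.668, signals 476 to 718 against 408 to 639) and -0.10 ± 0.25 at 0.8 µM (adjusted p = 0.933, signals 372 to 615). Its 20 µM effect at 48 h minus that at 24 h was -0.66 ± 0.35 (adjusted p = 0.417), so a difference between times was not established. Stellate cell and fibroblast markers had summed signals of 1518.9 to 2769.6 at 20 µM and 2404.5 to 2705.3 in vehicle at 24 h over 5 of 5 genes. limma called 0 of the 4 that were tested, with 1 lower at an unadjusted p under 0.05, and Lrat, the defining stellate gene, reached 183 at most, under the mean 40th percentile of 271.9.

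Tiparp encodes an ADP-ribosyltransferase that is induced by AhR and damps it in return. Its probe set 1374446_at at 24 h read 4681, 5519.96, 5205, 5609.55 and 4799.7 in vehicle wells, 4202, 6104, 5694, 6674 and 5413 at 0.8 µM, and 6499.6, 7303, 6822, 7519 and 7811 at 20 µM. The 20 µM wells all lay above vehicle, while the 0.8 µM wells spread across the vehicle range and beyond it on both sides. At 48 h it read 3437, 4029, 4087, 4472 and 4613 in vehicle wells, 4515, 5384, 4924, 3921 and 5042 at 0.8 µM, and 5731, 6812, 6890.04, 5579 and 6509 at 20 µM. Here the 20 µM wells lay above all wells of both other groups.

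The rise of that probe set at 20 µM was 0.48 ± 0.10 at 24 h (1.39-fold, adjusted p = 0.00054) and 0.61 ± 0.10 at 48 h (1.53-fold, adjusted p = 9.55e-06). The other probe set (1385407_at) moved the same way, by 0.86 ± 0.19 at 24 h (1.81-fold, adjusted p = 0.00142; signals 1348 to 1902 against 556 to 1179 in vehicle) and by 0.74 ± 0.19 at 48 h (1.67-fold, adjusted p = 0.00343; 1169 to 1759 against 648 to 1099.5). Both Tiparp probe sets thus separated 20 µM from vehicle with no overlap at either time. How many of all tested probe sets separate in this way was not counted, here or for Cyp1a1 and Cyp1a2.

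At 0.8 µM neither Tiparp probe set was called. The changes were 0.11 ± 0.10 (1374446_at, adjusted p = 0.781) and 0.10 ± 0.19 (1385407_at, adjusted p = 0.912) at 24 h, and 0.20 ± 0.10 (adjusted p = 0.384, 95% interval 0.00 to 0.40) and 0.20 ± 0.19 (adjusted p = 0.76) at 48 h. The doses differed in the test itself. At 24 h 20 µM was higher than 0.8 µM by 0.37 ± 0.10 in 1374446_at (adjusted p = 0.011) and by 0.75 ± 0.19 in 1385407_at (adjusted p = 0.00782). At 48 h the differences in the same order were 0.41 ± 0.10 (adjusted p = 0.00238) and 0.54 ± 0.19 (adjusted p = 0.0448). The 24 h call of 1374446_at was lost without 0.8 µM replicate 1 (0.27, adjusted p = 0.0568), and the 48 h call of 1385407_at without any one of 0.8 µM replicates 1, 3 and 4 and 20 µM replicates 1, 2 and 5 (adjusted p 0.0753 to 0.122) and under 4 of 12 other settings (adjusted p up to 0.0691).

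**Figure D4:**
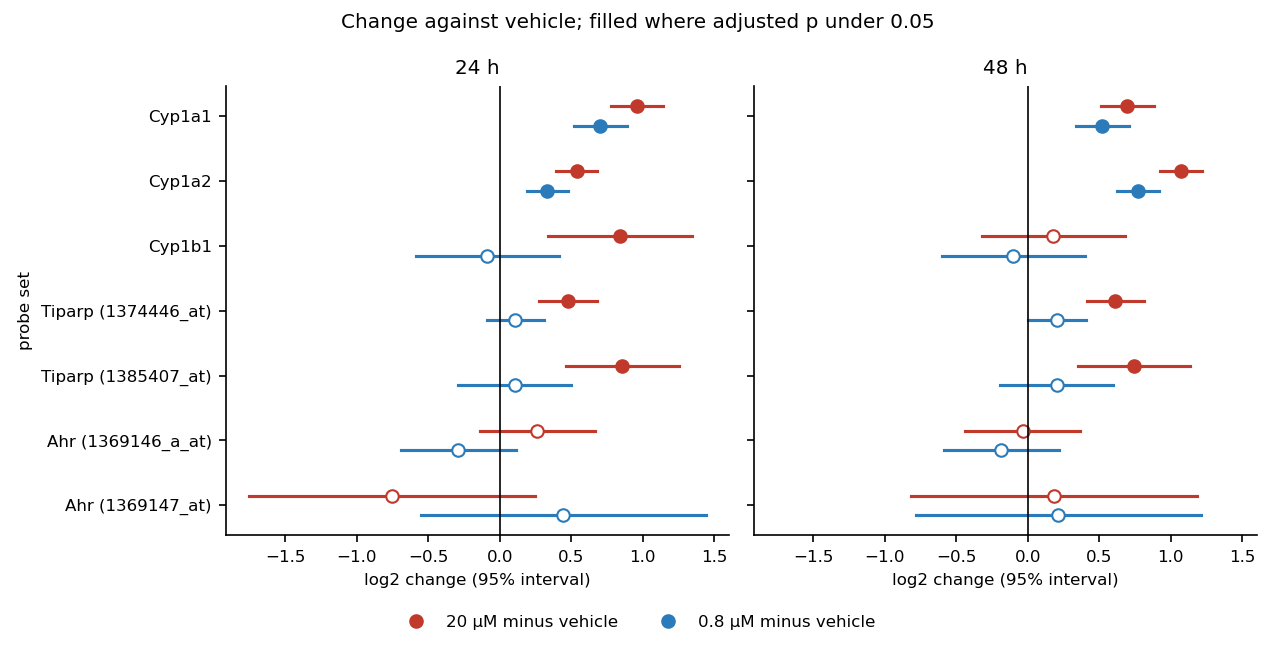
Log2 change against vehicle (horizontal, with its unadjusted 95% interval) at 20 µM (red) and 0.8 µM (blue) for the 7 tested probe sets, 24 h on the left and 48 h on the right, filled where the adjusted p was under 0.05. Both doses are filled for Cyp1a1 and Cyp1a2, 20 µM alone for both Tiparp probe sets and for Cyp1b1 at 24 h, and none for Ahr.

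The receptor itself was measured near the detection range. Probe set 1369146_a_at of Ahr exceeded the 40th percentile on 24 of 30 arrays and probe set 1369147_at on 15. Signals of the first at 24 h were 307, 383, 435, 311 and 254 in vehicle wells, 259.5, 337, 218, 284 and 273 at 0.8 µM, and 402, 433, 382, 346 and 438 at 20 µM. The treated groups overlapped with vehicle and did not overlap with each other. Changes against vehicle were 0.26 ± 0.20 at 20 µM (adjusted p = 0.43, 95% interval -0.14 to 0.67) and -0.29 ± 0.20 at 0.8 µM (adjusted p = 0.671).

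Between 20 and 0.8 µM the same Ahr probe set differed by 0.55 ± 0.20 at 24 h (adjusted p = 0.0681), which passed when arrays were centred on their medians (0.0381), quantile normalized (0.0312) or fitted with no trend (0.0295). The second Ahr probe set did not bear this out: its difference there was -1.20 ± 0.49 (adjusted p = 0.125), the opposite direction. Much of that size rested on 1 array: 20 µM replicate 4 read 18.8, near the floor, against 138 to 379 in the other 20 µM wells. Without it the difference was -0.48 (adjusted p = 0.49). Against vehicle at 24 h this probe set changed by -0.75 ± 0.49 at 20 µM (adjusted p = 0.342), and by -0.035 without that array. At 48 h the changes against vehicle were within 0.22 of 0 for both probe sets at both doses.

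Ahrr encodes the receptor's repressor and is itself a known target, and its probe set gave 9.05 to 107 in vehicle wells at 24 h. At 0.8 µM for 24 h its signals were 218, 137, 145, 174 and 131, above all vehicle wells (51.5, 107, 9.05, 106 and 36.0), with an exact two-sided permutation p of 0.00794. At 20 µM for 24 h they were 14.9 to 145 and overlapped with vehicle. All of these lie below the 40th percentile of their arrays, and with no filter limma gave 1.64 at an adjusted p of 0.487 for 0.8 µM against vehicle, so no change is reported for Ahrr. Arnt, the partner that AhR needs for DNA binding, gave 17.5 to 161 over all 30 arrays, also below that percentile, and this probe set gave no usable level.

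Promoters show where the receptor's core recognition letters lie in the genes that rose. RefSeq promoters of build GRCr8 were available for 6 of the 7 members, not for Cyp1a1, and the 250 bases before the annotated start were searched on both strands for GCGTG, the core of the dioxin response element. Of 33469 rat promoters of this length 25.9% hold it. The members that rose are shown because they differ in it: Cyp1a2 (chr8:66978150-66978399, minus strand) holds 0 matches, Cyp1b1 (chr6:21094315-21094564, plus strand) holds 2 and Tiparp (chr2:152063519-152063768, plus strand) holds 1, in capitals and read CACGC where the core is on the opposite strand.
Cyp1a2: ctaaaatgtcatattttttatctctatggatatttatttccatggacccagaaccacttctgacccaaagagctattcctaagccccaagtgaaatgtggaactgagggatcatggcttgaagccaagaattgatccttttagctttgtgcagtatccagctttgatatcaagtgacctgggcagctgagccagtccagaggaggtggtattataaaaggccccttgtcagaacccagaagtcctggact
Cyp1b1: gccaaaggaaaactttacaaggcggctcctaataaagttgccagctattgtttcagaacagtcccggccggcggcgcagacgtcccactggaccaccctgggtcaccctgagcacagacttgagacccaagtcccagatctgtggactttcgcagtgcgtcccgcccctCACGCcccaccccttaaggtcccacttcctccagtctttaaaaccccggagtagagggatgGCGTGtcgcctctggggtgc
Tiparp: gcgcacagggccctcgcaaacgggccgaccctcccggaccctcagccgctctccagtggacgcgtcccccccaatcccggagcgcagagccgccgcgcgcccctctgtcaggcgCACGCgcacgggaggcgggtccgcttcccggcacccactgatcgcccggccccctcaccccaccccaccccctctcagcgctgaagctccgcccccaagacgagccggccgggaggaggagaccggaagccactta
The Cyp1b1 matches begin 81 and 20 bases before the start and the Tiparp match 136 bases before it. Ahrr held 3 matches, Arnt 1 and Ahr 0. A match describes letters in this window only, and binding was not measured.

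Other genes around the receptor were read from lists of its known targets and partners. Of 8 listed genes of the wider AhR battery 5 had a probe set of their own, and 3 of these rose and 0 fell at 20 µM at each time, where 9.12% and 14.4% of all probe sets were called higher at 24 and 48 h, with median changes of 0.29 at 24 h and 0.11 at 48 h beside 0.01 and 0.04 over all 11503 genes. Nqo1, a quinone reductase that is also a known NRF2 target, rose at both doses: by 1.03 ± 0.05 and 0.99 ± 0.05 at 20 µM (24 and 48 h, adjusted p = 5.05e-15 and 7.33e-16) and by 0.35 ± 0.05 at each time at 0.8 µM (adjusted p = 0.000947 and 0.000126). Nfe2l2, the gene of NRF2, rose at 20 µM by 0.50 ± 0.06 at 24 h and 0.31 ± 0.06 at 48 h. Ugdh, which makes the sugar donor of glucuronidation, rose there by 0.29 ± 0.04 and 0.11 ± 0.04 (adjusted p = 4.04e-06 and 0.0486). At 0.8 µM for 48 h it fell by 0.16 ± 0.04 (adjusted p = 0.0456). Calls of genes in this and the other lists were not followed under other settings. Aldh3a1, an aldehyde dehydrogenase strongly induced by AhR in other rat cells, reached only 358 on any array and did not pass the test at either time (0.18 and -0.12), nor did Cyp2s1. Ugt1a6, Ugt1a7c and Gsta2 lie only on probe sets shared with other genes and were not used.

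Of the cytosolic receptor complex 3 of 5 listed genes were measured, and 2 rose and 0 fell at 20 µM at each time, beside the same 9.12% and 14.4% called higher. Ptges3, the co-chaperone p23, rose by 0.23 ± 0.04 at 24 h and 0.20 ± 0.04 at 48 h. Cdc37 rose by 0.14 ± 0.04 at 24 h and Hsp90ab1 by 0.37 ± 0.08 at 48 h. Of the transcriptional cofactors 5 of 6 were tested and limma called 0 in either direction at 20 µM at either time, also with 0 at an unadjusted p under 0.05. In either direction 17.4% of all probe sets were called at 24 h and 26.9% at 48 h.

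Enzymes that turn tryptophan into kynurenines, some of which are known AhR ligands, were mostly lower. At 20 µM 3 of 5 measured genes were lower and 0 higher after 24 h, and 4 were lower and 0 higher after 48 h, with median changes of -0.33 and -0.67 beside 0.01 and 0.04 over all genes. Of all probe sets 8.24% were called lower there at 24 h and 12.4% at 48 h. Tdo2, the hepatic dioxygenase that opens the pathway, fell by 0.33 ± 0.06 and 0.67 ± 0.06 on the log2 scale. Afmid, the formamidase that follows it, fell by 0.86 ± 0.09 and 1.10 ± 0.09, and Kynu, which cleaves kynurenine, fell by 0.80 ± 0.09 and 1.37 ± 0.09. Haao fell by 0.57 ± 0.11 at 48 h. At 0.8 µM only Kynu at 48 h was called (-0.32 ± 0.09, adjusted p = 0.0448).

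**Figure D5:**
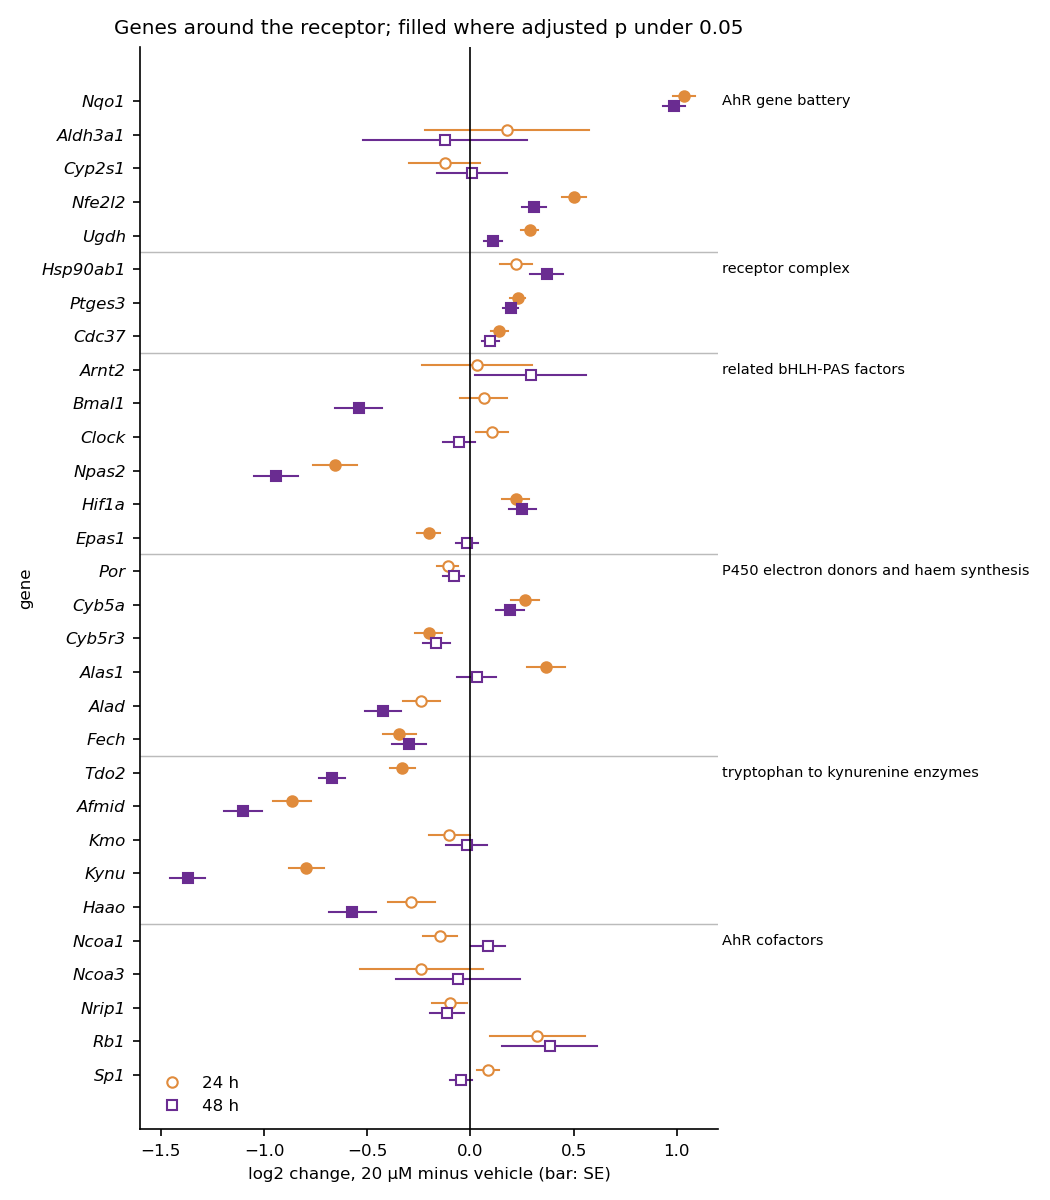
Log2 change ± SE at 20 µM minus vehicle for the measured genes of 6 lists around the receptor at 24 h (orange circles) and 48 h (purple squares), filled where the adjusted p was under 0.05. Nqo1 lies near 1 at both times, and the kynurenine pathway genes Tdo2, Afmid and Kynu lie left of 0.

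Genes with the most similar course over the 6 groups were found by the root mean square (RMS) difference of group means, each gene centred on its own mean, among 9743 named genes. For Cyp1a1 they were Tbc1d1 (0.07), Cdh11 (0.13), Bcdin3d (0.14), Efnb1 (0.14) and Rhobtb2 (0.15), all dim, with mean log2 signals of 8.46 to 9.24. For Cyp1a2 they were Bach1 (0.17), Slc6a6 (0.18), Lypd8 (0.19), RT1-CE10 (0.21) and Tmem237 (0.23). Tiparp had the closest companions: Eif2d (0.03), Scarb2 (0.03), Pcmt1 (0.04), Gng12 (0.05) and Lsm4 (0.05). The likeness is over 6 group means that share their arrays and is a description only.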

How the data were processed

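Values were MAS5 signals, deposited by the authors as linear intensity values per probe set and summarised with MAS5 per the submitters' processing notes (version not given in the sources used here); in the table the mean without the lowest and highest 2% of values was 1500.59 to 1500.67 on every array. No further normalization was applied.

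Signals were floored at 16 and put on a log2 scale. Control probe sets were left out, and the filter (above the 40th percentile of the own array on at least 5 arrays) kept 21226 of 31042. Names came from the platform annotation, brought up to date by Entrez identifier: 20826 probe sets had 1 symbol, 436 several and 9780 were not listed. Where lists are described, the kept probe set of highest mean stood for a gene (11503 genes).

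All 30 arrays were fitted in limma 3.58.1 (R 4.3.3) with 1 mean per group and eBayes with a trend, and p-values were adjusted by Benjamini-Hochberg over all kept probe sets. Exact two-sided permutation tests over arrays served for single values. Members, lists, tests and naming rule were chosen with earlier results of these data known. That rule names all members, list genes called at 20 µM, and for Cyp1a1, Cyp1a2 and Tiparp the 5 genes most alike whose 6 group means all exceed the mean 40th percentile of the arrays. Alternatives covered the floor, filter, normalization, spread model, array weights, arrays in the fit, array order, probe set choice, threshold and leaving out each array. The number of arrays limits the precision. Tested on simulated data of 21226 probe sets for 20 µM against vehicle at 24 h, the fit recovered 11 of 50 changed 1.25-fold, 24 of 50 at 1.5-fold, 40 of 50 at 2-fold and 50 of 50 at 4-fold, and 2 of 127 calls were false. These changed sets were a far smaller share than the 17.4% called in the real comparison, and the simulated noise was independent between probe sets. Recovery in the real data can therefore differ.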

Additional observations from a re-analysis of the deposited data

Results flagged for a closer look

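In Ahr probe set 1369147_at, replicate 1 of 0.8 µM at 24 h stood far below the rest of its group, with a log2 signal of 6.903 (signal 120 against 362 to 488 in the other 4 wells). Its gap to the nearest well was 0.788 of the group's range, above Dixon's critical value of 0.71. It was 1 such array among 54 groups of member values, where chance alone gives about 1 in 20 groups. Without it, 20 µM was called lower than 0.8 µM at 24 h in that probe set (-1.55, adjusted p = 0.0404), and without 20 µM replicate 2 likewise (-1.56, adjusted p = 0.0349). Both had the direction of the uncalled -1.20 of all arrays, and Ahr probe set 1369146_a_at differed the other way. Without 20 µM replicate 4, which read 18.8, the difference in 1369147_at shrank to -0.48 (adjusted p = 0.49).

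The 20 µM effect on Cyp1a2 differed between the times by 0.536 on the log2 scale (adjusted p = 0.00156 in limma), being larger at 48 h than at 24 h. Over that interval Cyp1a2 was lower at 48 h in vehicle wells, by 1.07 on the log2 scale in mean level, as described above.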

How the results depend on the processing

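Of 22 called results of single probe sets, 16 kept their call under all 13 other settings and without any single array, and 0 changed sign. The number of probe sets of the axis called at 0.8 µM for 24 h (2) dropped to 1, Cyp1a1, with no filter, with arrays centred on their medians, with no trend, with array weights, with only the groups compared, or at an adjusted p under 0.01, and was 1 to 2 without single arrays. Over all probe sets, 60 were called in that comparison, against 34 with no filter, 106 with a 60th percentile filter, 95 with 1 probe set per gene, 4 with centred arrays, 13 with no trend, 50 with array weights, 6 with only the groups compared, 9 at 0.01, and 12 to 124 without single arrays, over 1.5 times apart for each array but vehicle replicates 2 and 3. Between 20 and 0.8 µM at 24 h the count of 3 became 5 with a 60th percentile filter, with centred arrays, with quantile normalization or with array weights (4 higher, 1 lower), and 1 at 0.01, and was 3 to 6 without single arrays. Vehicle at 48 against 24 h called 1 instead of 2 with centred arrays, with no trend or at 0.01, and 1 to 2 without single arrays. Quantile normalization called 2 instead of 1 in the comparison of the 20 µM effects between times. At 0.8 µM for 48 h 384 probe sets of the whole table were called, against 160 with centred arrays, 221 with no trend, 133 at 0.01 and as few as 199 without single arrays. For the 20 µM effects between times, 577 were called against 291 with centred arrays. At 0.01 the counts fell to 2374 of 3685 at 20 µM for 24 h, 1363 of 2333 between the doses at 24 h, 239 of 577 for effects between times and 1027 of 1895 in vehicle. The added comparison of the 0.8 µM effects called 9, with 2 to 16 elsewhere. The cause of these differences was not tested. The difference of the Cyp1a1 and Cyp1a2 changes, taken within arrays, cannot move with centring. Quantile normalization gave 0.383 at 24 h and -0.443 at 48 h, and without single arrays it was 0.368 to 0.481 and -0.416 to -0.332 (exact permutation p up to 0.0159).

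The labels give the wells no replicate numbers and state no pairing. Arrays were numbered in the same order of groups in each set of 6, so position within a set cannot be told apart from group. With sets of 6 as a block, which pairs the groups by array number, 1 call was lost, that of Tiparp 1385407_at between 20 and 0.8 µM at 48 h (adjusted p = 0.0599), as it also was with no filter, with no trend and at 0.01, so that this comparison called 2 instead of 3. Other pairs of probe sets for the difference of the CYP1A changes were not run, since each gene has 1. Signal near background limits Cyp1b1 and Ahr and kept Ahrr and Arnt below the filter.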

Other observations

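Relatives of AhR in the bHLH-PAS family moved in both directions at 20 µM. Of 6 measured genes 1 was higher and 2 lower at each time, where 17.4% of all probe sets were called in either direction at 24 h and 26.9% at 48 h, with median changes of 0.05 at 24 h and -0.04 at 48 h beside 0.01 and 0.04 over all genes. Npas2, a partner of BMAL1 in the circadian clock, fell by 0.66 ± 0.11 at 24 h and 0.94 ± 0.11 at 48 h on the log2 scale. Bmal1 itself fell by 0.54 ± 0.12 at 48 h, and its 20 µM effect differed between the times (-0.61 ± 0.16, adjusted p = 0.0366). Hif1a, the oxygen-regulated subunit that also pairs with ARNT, rose by 0.22 ± 0.07 and 0.25 ± 0.07, and Epas1, its paralogue, fell by 0.20 ± 0.05 at 24 h.

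Genes that supply P450 enzymes with electrons and haem moved in both directions too. At 20 µM 2 of 6 were higher and 2 lower at 24 h, and 1 higher and 2 lower at 48 h, beside the same 17.4% and 26.9% called. Cyb5a, the cytochrome b5 electron donor, rose by 0.26 ± 0.07 and 0.19 ± 0.07. Alas1, the rate-limiting enzyme of haem synthesis, rose by 0.36 ± 0.09 at 24 h. Fech, which inserts the iron that completes haem, fell by 0.34 ± 0.08 and 0.30 ± 0.08. Alad fell by 0.42 ± 0.09 at 48 h and Cyb5r3 fell by 0.20 ± 0.07 at 24 h. Por, the main P450 reductase, did not pass the test at 20 µM at either time, and in vehicle wells it was lower at 48 h than at 24 h (-0.24 ± 0.05, adjusted p = 0.00161).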
